A study of Arabidopsis thaliana with 22 samples.

Results

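The nuclear genes for the photosystem I and photosystem II subunits, their light-harvesting antennae, the soluble and membrane electron carriers and the Rubisco small subunit were followed in Arabidopsis seedlings of 3 genotypes with and without BRZ. The genes were chosen by their gene identifiers, such as AT2G05100 for LHCB2.1, AT2G05070 for LHCB2.2, AT3G27690 for LHCB2.3, AT3G47470 for LHCA4 and AT5G38420 for RBCS2B, and not by a measured value. Earlier results of these data were known when this set and the other gene lists were chosen. The set holds 53 of the 32833 genes in the deposited table. There are 6 antenna genes of photosystem I (LHCA1 to LHCA6), 15 of photosystem II (5 LHCB1, 3 LHCB2, LHCB3, 3 LHCB4, LHCB5, LHCB6 and LHCB7), 12 genes of the photosystem I core, 11 of photosystem II subunits, 5 electron carrier genes and 4 RBCS genes. Each of the 53 had a row and a normalized read number above 0, and each name was found in the RefSeq annotation.

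QuantSeq libraries, which hold reads from the 3′ ends of polyadenylated transcripts, were made from whole 7-day-old seedlings in the Col-0 accession. WT, baf1 and bes1.D were each grown with the solvent DMSO or with 250 nM BRZ, an inhibitor of brassinosteroid synthesis that the series text writes as brassicanazole. Each genotype had 4 libraries without BRZ. The treated groups held 3 libraries for WT and for bes1.D and 4 for baf1, all described as biological replicates, so p-values measure the spread between these seedling samples. baf1 is a GABI-Kat T-DNA insertion line in BAF1, the F-box subunit of a ubiquitin ligase for BES1, and each mutant was represented by a single line. bes1.D carries a dominant mutation that stabilizes the brassinosteroid-activated transcription factor BES1, and it was introgressed into Col-0, so a segment of chromosome 1 around BES1 may come from the accession in which it arose. All groups shared the medium with sucrose. The labels name a long-day regime in the growth field and continuous light in the treatment field.

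Light-harvesting proteins bind chlorophyll and pass excitation energy to the photosystem cores. LHCB1, LHCB2 and LHCB3 form the trimeric antenna LHCII, LHCB4, LHCB5 and LHCB6 (CP29, CP26 and CP24) link it to photosystem II, and LHCA1 to LHCA4 form the belt of photosystem I. Plastocyanin (PETE) and ferredoxin-NADP reductase (FNR) carry electrons on either side of photosystem I, and Rubisco fixes carbon dioxide. These nuclear transcripts are known to rise with light and with the GLK transcription factors. BES1 and its homolog BZR1 bind the BRRE and G-box elements, and brassinosteroid-deficient seedlings are known to turn on light-regulated genes.

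The bases upstream of 5 genes are shown because these genes carry the changes in bes1.D described below, 4 downward and RBCS2B upward. Each run is the 250 bases before the annotated gene start in RefSeq assembly TAIR10.1, 5′ to 3′ on the strand of the gene. Capitals mark a G-box (CACGTG), a BRRE (CGTGTG or CGTGCG) or an I-box (GATAAG), searched on both strands. In PSAE-2 the G-box and the BRRE overlap.
LHCB2.1 (chr2:1824481-1824730, minus strand): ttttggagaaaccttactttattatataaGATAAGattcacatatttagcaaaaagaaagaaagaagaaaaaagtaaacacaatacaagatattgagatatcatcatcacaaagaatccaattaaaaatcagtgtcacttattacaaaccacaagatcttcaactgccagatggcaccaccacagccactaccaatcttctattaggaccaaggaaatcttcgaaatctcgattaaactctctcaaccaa
LHCB2.2 (chr2:1800473-1800722, minus strand): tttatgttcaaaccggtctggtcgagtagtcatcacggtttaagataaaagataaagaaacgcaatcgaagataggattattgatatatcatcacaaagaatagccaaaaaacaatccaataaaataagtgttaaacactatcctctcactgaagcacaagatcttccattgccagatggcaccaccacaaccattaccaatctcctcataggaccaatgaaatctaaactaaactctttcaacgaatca
LHCB2.3 (chr3:10255656-10255905, plus strand): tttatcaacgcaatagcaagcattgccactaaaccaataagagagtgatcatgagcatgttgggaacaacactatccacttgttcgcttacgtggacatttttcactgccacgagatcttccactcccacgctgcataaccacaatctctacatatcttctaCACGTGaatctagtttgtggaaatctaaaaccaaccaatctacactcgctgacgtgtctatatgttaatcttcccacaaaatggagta
LHCA4 (chr3:17495034-17495283, minus strand): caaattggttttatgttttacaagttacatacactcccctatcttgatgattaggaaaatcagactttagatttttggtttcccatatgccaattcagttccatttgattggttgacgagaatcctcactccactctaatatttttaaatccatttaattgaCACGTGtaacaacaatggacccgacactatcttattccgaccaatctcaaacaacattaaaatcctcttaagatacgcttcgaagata
RBCS2B (chr5:15382072-15382321, minus strand): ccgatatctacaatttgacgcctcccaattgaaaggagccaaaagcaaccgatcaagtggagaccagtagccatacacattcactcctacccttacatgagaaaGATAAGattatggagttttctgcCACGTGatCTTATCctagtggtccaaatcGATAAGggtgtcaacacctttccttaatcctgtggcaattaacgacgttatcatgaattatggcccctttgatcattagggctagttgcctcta

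Counted from the gene start, LHCB2.3 and LHCA4 each had a G-box at -88 to -83, LHCB2.1 had a single I-box at -221 to -216, and LHCB2.2 had none of these words in this window. RBCS2B had a G-box at -123 to -118 with I-boxes at -146, -115 and -94. Over all 53 genes, 11 upstream windows held a G-box (20.8%, against 6.49% of 27444 protein-coding nuclear genes), 13 held an I-box (24.5% against 12.3%) and 3 held a BRRE (5.66% against 6.71%). Of the 11 genes called lower in bes1.D without BRZ, at an adjusted p under 0.05 in the test described below, 1 had a G-box, 2 had an I-box and 0 had a BRRE. Of the 5 called higher, 2 had a G-box, 1 had an I-box and 0 had a BRRE. These are counts of letters in fixed windows, not of bound sites.

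The values are normalized reads that the authors adjusted to nearly the same total in every library, and the depth behind them was estimated from genes with low values at 2.11 to 5.16 M reads. BAF1 ran from 0.0627 to 13.5 normalized reads in the 8 baf1 libraries and from 202 to 399 in the other 14. BES1 ran from 356.5 to 599 over all groups, and the bes1.D allele changes the protein and not the transcript number, so this does not check that label. Whole seedlings hold roots as well as green tissue. The 14 root marker genes summed to 11143 to 15674 normalized reads, and in bulk RNA fewer cells of a type and less RNA per cell cannot be told apart. The 26 plastid-encoded photosynthesis genes were listed at 0 in every library, so only the nuclear share of the apparatus was measured. Of the 53 genes, 51 shared no 50-base stretch of their last 300 transcribed bases with another annotated gene. LHCB2.2 shared 17.9% of its stretches with LHCB2.1, and LHCB1.2 shared 6.37% with LHCB1.1 and LHCB1.3, so reads of these copies are less certain.

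Some libraries stood apart. Replicate 5 of WT without BRZ had 15 of the 53 genes more than 0.5 on the log2 scale below the mean of the other libraries of its group, and replicate 4 of baf1 with BRZ had 12. Replicate 3 of bes1.D with BRZ and replicate 2 of WT with BRZ had 5 each, and the other libraries had 0 to 3. Over all 16331 genes with a mean of at least 10, 15%, 15%, 16% and 12.1% were that far below in these 4 libraries, in the order given, against 4.51% to 9.49% in the others. Where such a library changes a call or moves a called value by more than 1.5 times, this is stated. The value without it is given for some genes, and for others only the lost call or the number of calls. For fits that leave out a library or change a setting, the share of all genes called is not given. A gain of calls in such a fit therefore cannot be set against that share.

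In WT without BRZ the 53 genes took 13.7% ± 0.473 (SD, n = 4) of all normalized reads. A 3′ library gives about 1 read per captured transcript end, so levels of different genes can be set side by side without dividing by length. LHCB1.5 and LHCB1.4 were the most abundant, with means over the 22 libraries of 35947 and 35761 normalized reads, and their order was not the same in every group. LHCB7 and LHCB4.3 were the least abundant, with 17.0 and 10.6, and LHCA6, an antenna protein of the photosystem I supercomplex with the NDH complex, had 58.2. LHCB4.3 fell under the minimum mean of 10 normalized reads in 2 comparisons, so 52 genes were tested there and 53 in the others.

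Pairs of copies differed widely in their balance, and that balance was mostly alike in the 6 groups. PSBO1, the main form of the manganese-stabilizing subunit, gave 98.9% to 99.3% of PSBO reads in the group means, and PETE2 gave 95.2% to 96.5% of plastocyanin reads. PSAD-1 gave 81.3% to 85.4% of PSAD reads and PSAE-1 gave 77.01% to 78.2% of PSAE reads, both stromal subunits of photosystem I that dock ferredoxin. PSAH-2 gave 69.05% to 76.9% of PSAH reads, PSBQ-2 gave 76.5% to 83.0% of PSBQ reads and LHCB4.1 gave 61.3% to 67.7% of LHCB4 reads. The FNR pair was different. FNR2 gave 34.8% ± 10.1 (SD, n = 4) of FNR reads in WT without BRZ, 43.4% ± 3.04 (SD, n = 4) in baf1 and 52.6% ± 0.355 (SD, n = 4) in bes1.D. Replicate 5 of WT had 19.75%, and the other 3 WT libraries had 39.03% to 40.5%.

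The classes of genes did not move together across the groups. The antenna of photosystem II took 5.89%, 5.91%, 5.99% and 6.01% of normalized reads in the 4 WT libraries without BRZ and 4.04% to 4.37% in the 4 bes1.D libraries, with no overlap. With BRZ the share was 6.85% to 6.95% in WT, 6.14% to 7.01% in baf1 and 3.97% to 4.104% in bes1.D. The photosystem I antenna was also lowest in bes1.D, with 0.847% to 0.887% without BRZ, against 1.055% to 1.101% in WT and 1.139% to 1.165% in baf1. The photosystem I core took 2.46% to 2.63% in WT and 2.415% to 2.585% in bes1.D without BRZ, where the groups overlapped. With BRZ it took 2.604% to 2.738% in WT and 2.347% to 2.474% in bes1.D, with no overlap. The photosystem II subunits were also lower in bes1.D with BRZ (2.0% to 2.178%, against 2.284% to 2.409% in WT). The electron carriers were higher there (0.761% to 0.897%, against 0.673% to 0.734%). Without BRZ, Rubisco small subunit genes took 0.736% to 1.31% in WT, with replicate 5 the lowest, 1.28% to 1.49% in baf1 and 1.27% to 1.45% in bes1.D.

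**Figure D1:**
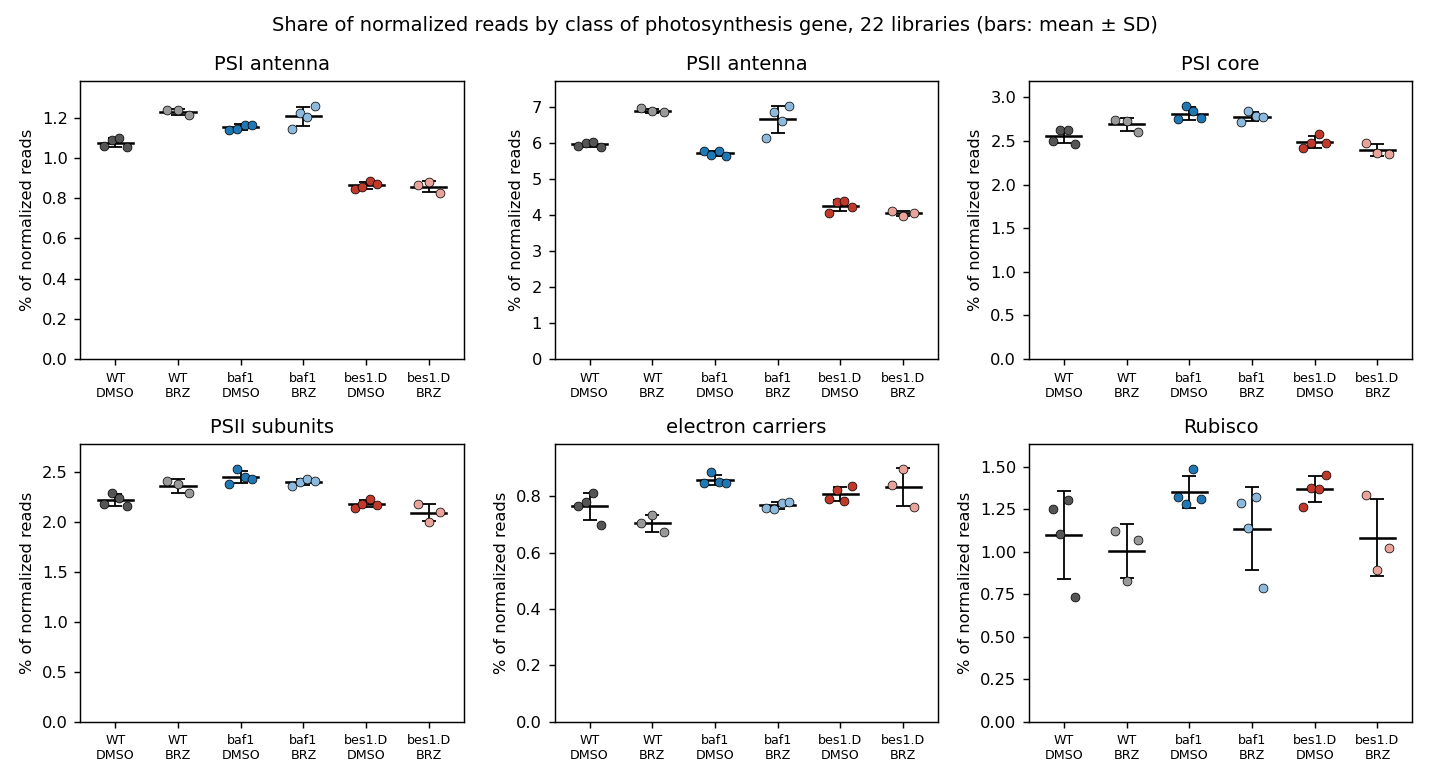
Share of all normalized reads (%, linear axis from 0) taken by each class of photosynthesis genes in each library (points), by genotype and treatment, with the mean (horizontal bar) and SD (error bar) of each group. Both antenna classes are lowest in bes1.D (4.04% to 4.37% of reads without BRZ for photosystem II), whereas the core, subunit, carrier and Rubisco classes of bes1.D overlap those of WT without BRZ. With BRZ, of these classes only Rubisco of bes1.D overlaps that of WT.

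Differences between groups were tested by limma's moderated test after adding 1 to each value and taking log2, which makes folds of scarce transcripts look smaller than they are. Genes whose mean over the fitted libraries was under 10 normalized reads were left out. A gene is called when its p-value, adjusted over all tested genes by the Benjamini-Hochberg method, is under 0.05. The study's own criterion, an unadjusted p under 0.05 with a fold above 1.1, is given as a second count. The study took its p-values from PoissonSeq and here they come from limma, so these are not the study's own calls. Comparisons with the same WT libraries share them, so they are not independent of each other.

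bes1.D against WT without BRZ asked what stabilized BES1 goes with. Antenna transcripts were lower and a few Rubisco and carrier transcripts were higher. The bes1.D means of LHCB2.2, LHCB1.1 and LHCB2.1 were 0.49, 0.51 and 0.518 of the WT means, while those of RBCS2B and FNR2 were 1.93 and 2.06 times the WT means. Of 53 genes tested, 11 were lower (20.8%, against 3.44% of all 16270 genes tested) and 5 were higher (9.43%, against 4.09%). LHCB7, counted among the 5, passed the filter on low values only through its bes1.D libraries. All 11 lower genes were antenna genes, 9 of photosystem II and 2 of photosystem I. Of the 32 members that are not antenna genes 4 were higher and 0 lower. By the study's criterion 8 of the 32 were higher and 0 lower, where 2313 of all 16270 genes were higher and 1311 lower. The median log2 change was -0.33 over the 21 antenna genes, 0.07 over the 32 others and 0.08 over all genes tested.

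The strongest falls were in LHCB2 and LHCB1, the bulk of LHCII. LHCB2.2 had 4971, 5617, 5560 and 5338 normalized reads in WT and 2251, 2702, 2731 and 2847 in bes1.D. The groups lay far apart, with a log2 change of -1.03 (SE 0.09, adjusted p = 1.4e-06). LHCB1.1 had 30304, 32964, 30238 and 31527 in WT and 13524, 16692, 17404 and 16185 in bes1.D, a log2 change of -0.98 (SE 0.10, adjusted p = 4.23e-06). LHCB2.1 had 7936, 8521, 8441 and 6773 in WT against 3606, 4350, 4021 and 4427, a log2 change of -0.95 (SE 0.10, adjusted p = 7e-06). For these 3 genes the highest bes1.D library was below the lowest WT library.

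The other LHCB1 copies also fell, with estimates nearer 0. LHCB1.4 had 37095 to 41146 normalized reads in WT and 24511 to 28271 in bes1.D, a log2 change of -0.53 (SE 0.09, adjusted p = 0.00115). LHCB1.3, LHCB1.2 and LHCB1.5 changed by -0.44, -0.33 and -0.32 (adjusted p = 0.00471, 0.0342 and 0.0345). LHCB1.1 went from 19.2% ± 0.993 of LHCB1 reads in WT to 13.8% ± 1.055 in bes1.D (SD, n = 4 each), and LHCB1.5 from 22.4% ± 0.645 to 25.4% ± 0.456.

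LHCB2.3 gave a different picture, because of a single WT library. It had 979, 867, 1069 and 339 normalized reads in WT and 467, 540, 591 and 612 in bes1.D, where replicate 5 of WT is the low value. It was not called with that library, and without it the log2 change was -0.82 (SE 0.10, adjusted p = 1.31e-06).

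LHCB3, the third LHCII protein, had 7019, 8053, 7935 and 8994 normalized reads in WT and 4571, 5649, 5327 and 6254 in bes1.D, a log2 change of -0.56 (SE 0.10, adjusted p = 0.00277). Among the linker antennae, LHCB5 (CP26) changed by -0.34 (SE 0.09, adjusted p = 0.0334). LHCB4.1, LHCB4.2 and LHCB6 changed by -0.19, -0.24 and -0.22 and were not called (adjusted p = 0.166, 0.0781 and 0.188). The LHCII genes held 8 of the 9 photosystem II antenna genes called lower, and LHCB5 was the ninth.

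In the photosystem I belt the LHCA1 and LHCA4 pair, which form a heterodimer, fell. LHCA4 had 11390 to 11951 normalized reads in WT and 7577 to 8561 in bes1.D, a log2 change of -0.52 (SE 0.08, adjusted p = 0.000616). LHCA1 had 12929 to 15337 and 9414 to 10064, a log2 change of -0.51 (SE 0.09, adjusted p = 0.00117). LHCA2, LHCA3 and LHCA5 were not called. LHCA6 had 63.5, 27.8, 66.5 and 5.82 in WT and 68.2, 85.2, 119.7 and 55.3 in bes1.D, so the groups overlapped and it was not called (adjusted p = 0.108).

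Among the genes called higher, RBCS2B and RBCS1B are 2 of 3 Rubisco small subunit genes that lie side by side on chromosome 5. RBCS2B had 4018, 3863, 4137 and 2147 normalized reads in WT and 6688, 6885, 6496 and 7262 in bes1.D, a log2 change of 0.99 (SE 0.16, adjusted p = 0.00057). RBCS1B had 2289, 2142, 2217 and 1349 against 3202, 3560, 3170 and 3558, a log2 change of 0.78 (SE 0.13, adjusted p = 0.00125). In each gene replicate 5 of WT was the lowest library, and without it the changes were 0.77 and 0.60, still called. RBCS3B and RBCS1A, the most abundant copy, changed by 0.37 and 0.16 and were not called. RBCS2B gave 8.795% ± 0.65 of RBCS reads in WT and 13.8% ± 0.614 in bes1.D (SD, n = 4 each).

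FNR2, a leaf ferredoxin-NADP reductase, had 765, 822, 814 and 314 normalized reads in WT and 1334, 1400, 1450 and 1400 in bes1.D, a log2 change of 1.14 (SE 0.22, adjusted p = 0.00309). Without replicate 5 of WT it was 0.80 (SE 0.08, adjusted p = 5.06e-08). Its copy FNR1 changed by 0.04 and was not called. PSBS, the sensor of photoprotective quenching, had 370 to 621 in WT and 635 to 752.5 in bes1.D, a log2 change of 0.46 (SE 0.13, adjusted p = 0.0412). The 370 was replicate 5 of WT, and without it the change was 0.31 (SE 0.09, adjusted p = 0.0301). LHCB7, a rare antenna protein, had 7.75 to 11.5 in WT and 19.2 to 29.7 in bes1.D, a log2 change of 1.25 (SE 0.28, adjusted p = 0.00933). Its WT mean was under the minimum mean of 10, so it was tested only because of its level in bes1.D. The values lie near that minimum, and this call is not support for a rise.

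FNR2 lies 0.254 Mb from BES1 on chromosome 1, LHCA6 0.0765 Mb and PETE2 0.353 Mb. Within 0.5 Mb of BES1, 14 of 169 tested genes were called (8.28%, against 7.52% of the genes elsewhere), and within 2 Mb 70 of 713 (9.82% against 7.42%). For FNR2 an effect of the introgressed segment and an effect of the mutation cannot be told apart. Of the 11 genes called lower here, LHCB1.1, LHCB1.2 and LHCB1.3 lie nearest to BES1, at 3.78 to 3.79 Mb. The extent of the segment was not tested.

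Without replicate 5 of WT 12 genes were lower and 6 higher, LHCB2.3 and PSBQ-1 (0.30, adjusted p = 0.0279) being added. Leaving out each library in turn gave 8 to 12 lower and 4 to 7 higher. The calls also depended on the treatment of low values. Without the filter 5 of the 53 genes were called (1 higher, 4 lower), and with a variance estimate that does not follow the mean 9 were (3 higher, 6 lower). After rescaling to median-of-ratios size factors 4 were higher and 12 lower, 15 of the 16 calls remained, and the median change of the 53 genes went from 0.02 to -0.05, so its sign depends on the scaling.

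**Figure D2:**
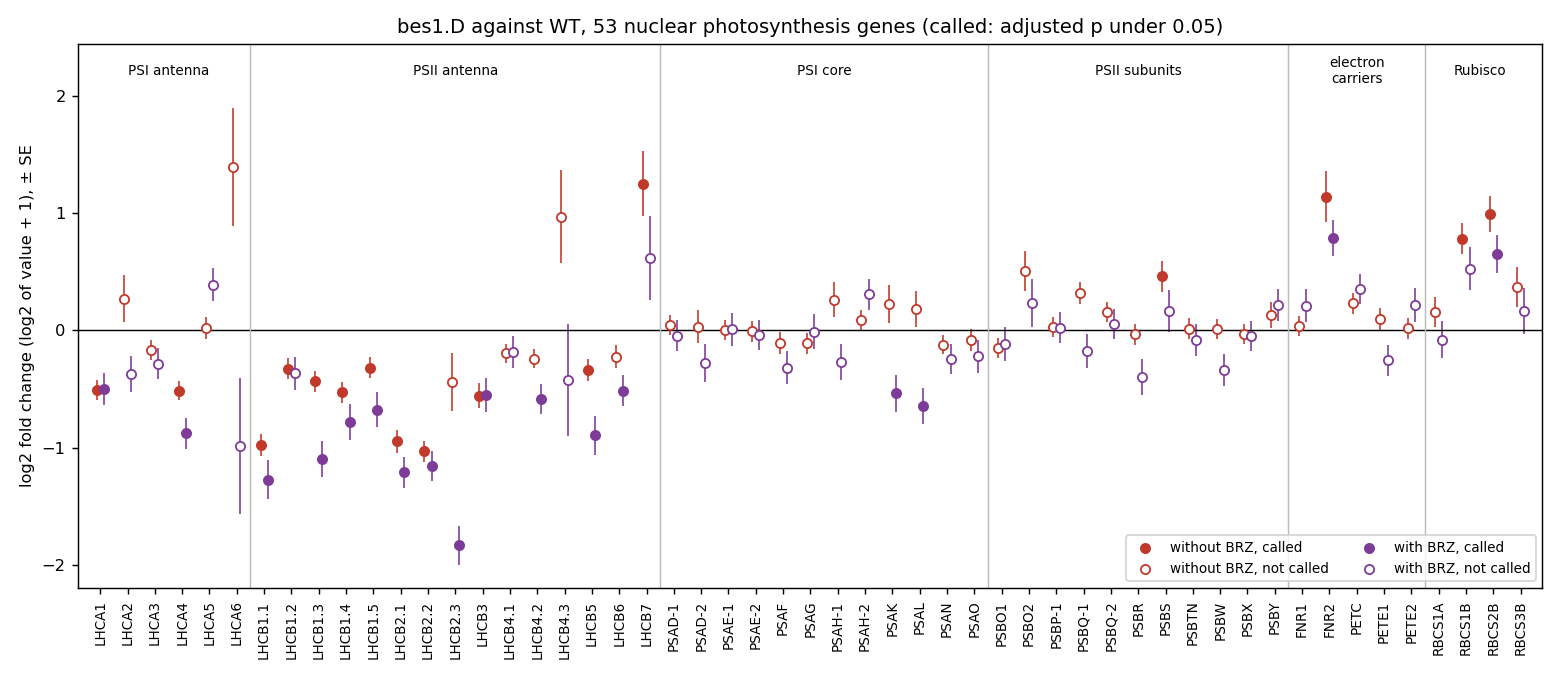
Log2 fold change of bes1.D against WT (log2 of normalized reads + 1, vertical axis, ± SE) for the 53 genes, grouped by class along the horizontal axis, without BRZ (red) and with BRZ (purple). Filled points are called at an adjusted p under 0.05; LHCB1 and LHCB2 genes lie below 0 in both treatments, down to -1.83 for LHCB2.3 with BRZ, and FNR2 and RBCS2B lie above 0 in both.

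With BRZ, bes1.D again had lower antenna transcripts than WT, and 2 photosystem I core genes were called lower as well. Whether the difference from WT depended on BRZ was tested as an interaction, given below, which called 0 of the 53 genes (smallest adjusted p = 0.0776). Of 53 genes tested, 15 were lower (28.3%, against 5.3% of all 16294 genes tested) and 2 higher (3.77%, against 5.76%). The lower genes were 11 antenna genes of photosystem II, LHCA1 and LHCA4, and the photosystem I core genes PSAK and PSAL. The higher genes were FNR2 and RBCS2B. The median change was -1.13 over the 8 LHCB1 and LHCB2 genes, -0.04 over the 32 members that are not antenna genes and 0.04 over all genes tested.

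LHCB2.3 showed the widest difference of the 53 genes. It had 1231, 896 and 1361 normalized reads in WT and 407, 288 and 280 in bes1.D, a log2 change of -1.83 (SE 0.17, adjusted p = 1.82e-07). LHCB1.1 had 28219, 33907 and 28771 against 11435, 16154 and 10541, a log2 change of -1.27 (SE 0.17, adjusted p = 1.8e-05). LHCB2.1 had 9061, 7847 and 9396 against 3765, 3926 and 3645, a log2 change of -1.21 (SE 0.13, adjusted p = 1.66e-06). In all 3 genes every bes1.D library was below every WT library, and the ratios of the group means were 0.28, 0.419 and 0.431.

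LHCB2.2 and LHCB1.3 followed. LHCB2.2 had 6376, 6125 and 6731 normalized reads in WT and 2659, 3105 and 2857 in bes1.D, a log2 change of -1.16 (SE 0.13, adjusted p = 2.12e-06). LHCB1.3 had 42767, 37768 and 42693 against 21025, 16008 and 20853, a log2 change of -1.10 (SE 0.16, adjusted p = 5.96e-05). LHCB1.3 gave 21.6% ± 1.51 (SD, n = 3) of LHCB1 reads in WT with BRZ and 17.8% ± 2.38 (SD, n = 3) in bes1.D. 

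LHCB5 had 6248, 6548 and 6330 normalized reads in WT and 3732, 2426 and 4440 in bes1.D, a log2 change of -0.90 (SE 0.17, adjusted p = 0.00118). Replicate 3 of bes1.D was the lowest, and without it the change was -0.65 and still called. LHCA4 had 13755, 14043 and 13850 against 7497, 8078 and 7096, a log2 change of -0.88 (SE 0.13, adjusted p = 0.000126). LHCB1.4 and LHCB1.5 changed by -0.78 and -0.68 (adjusted p = 0.0016 and 0.00445). The remaining lower genes were LHCB4.2, LHCB3, LHCB6 and LHCA1, with log2 changes of -0.59, -0.55, -0.51 and -0.50, of which LHCB6 lies 1.24 Mb from BES1.

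PSAK and PSAL are small membrane subunits of photosystem I, PSAL at the site where LHCII can dock. PSAL had 7331, 6460 and 7346 normalized reads in WT and 5783, 4066 and 3860 in bes1.D, a log2 change of -0.65 (SE 0.15, adjusted p = 0.00731). PSAK had 6968, 6219 and 6504 against 5696, 3464 and 4675, a log2 change of -0.54 (SE 0.16, adjusted p = 0.0289). The groups did not overlap in either gene. Without replicate 3 of bes1.D PSAL was still called, PSAK (-0.35, adjusted p = 0.133) and LHCB3 (-0.47, adjusted p = 0.0505) were not, RBCS1B was called higher (0.79, adjusted p = 0.00274), and 13 genes were lower and 3 higher. Without replicate 2 of WT with BRZ 12 were lower and 1 higher, FNR2, so RBCS2B was not called there. The lower calls lost in that fit were among LHCB4.2, LHCB3, LHCB6, LHCA1, PSAK and PSAL.

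FNR2 had 881, 584 and 742 normalized reads in WT and 1440, 1053 and 1294 in bes1.D with BRZ, a log2 change of 0.79 (SE 0.15, adjusted p = 0.00185). RBCS2B had 3799, 2709 and 3268 against 6524, 4378 and 4559, a log2 change of 0.65 (SE 0.16, adjusted p = 0.0102). The groups did not overlap in these genes, but RBCS2B was not called without replicate 2 of WT. Without the filter on low values 3 of the 53 genes were called, all lower, and without a trend in the variance 7 were, all lower.

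**Figure D3:**
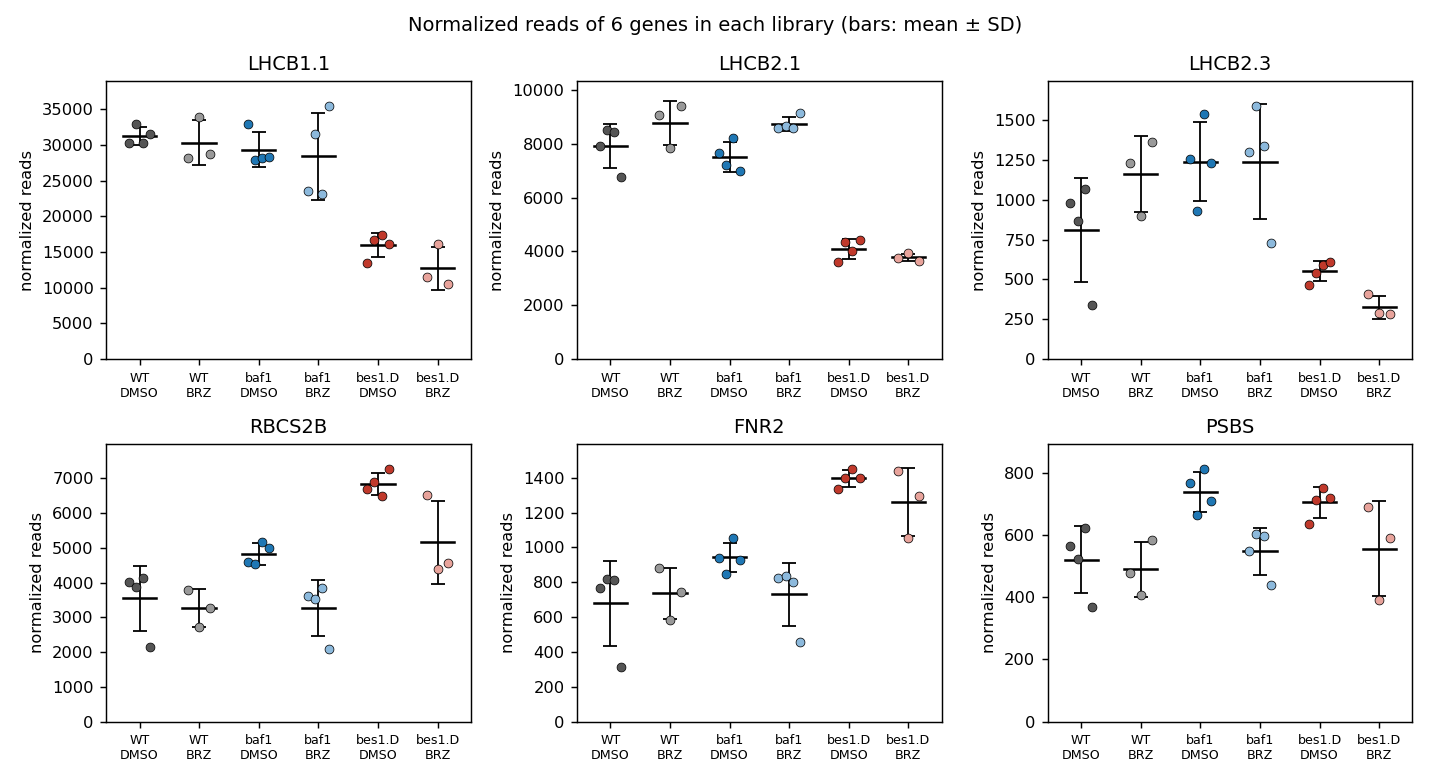
Normalized reads (linear axis from 0) of 6 genes in each library (points) with the mean and SD of each group. LHCB1.1, LHCB2.1 and LHCB2.3 are lower in bes1.D, with LHCB2.3 between 280 and 407 in bes1.D with BRZ; RBCS2B and FNR2 are higher, and the low points of WT without BRZ in LHCB2.3, RBCS2B, FNR2 and PSBS are replicate 5.

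BRZ in WT asked how a block of brassinosteroid synthesis bears on the same genes. No gene of the 52 tested was called, against 0.605% of all 16194 genes, and 11 had an unadjusted p under 0.05 in limma. A fit with the replicate number as a block called 8. By the study's criterion 10 were higher (19.2%, against 5.29% of all genes) and 1 lower (1.92%, against 4.92%), and 9 of the 10 higher genes were antenna genes. The antenna median was 0.26 on the log2 scale and that of the other 32 genes 0.05, against 0.04 over all genes.

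The 3 genes with the smallest p were antenna genes. LHCB1.3 had 32391, 30679, 33087 and 29558 normalized reads without BRZ and 42767, 37768 and 42693 with it, a log2 change of 0.39 (SE 0.10, adjusted p = 0.123). LHCB1.5 had 34177 to 38190 and 45042 to 47162, a log2 change of 0.34 (SE 0.09, adjusted p = 0.165). LHCA3 had 7130 to 8434 and 9057 to 9700, a log2 change of 0.30 (SE 0.09, adjusted p = 0.228). The libraries with BRZ lay above all those without it in each of the 3, and none passed the adjusted threshold. Without replicate 5 of the untreated group 2 genes were called, LHCA3 higher (0.35, adjusted p = 0.0395) and RBCS3B lower (-0.55, adjusted p = 0.042).

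In baf1, BRZ went with higher LHCB1.4, LHCB2.2 and LHCB1.3 and lower RBCS2B and PSBS. The other 5 LHCB1 and LHCB2 genes were not called, and LHCB1.1 and LHCB2.3 had estimates below 0 (-0.07 and -0.03). Of 53 genes 3 were called higher (5.66%, against 0.916% of all 16382 genes) and 2 lower (3.77%, against 0.885%). By the study's criterion 9 were higher and 9 lower (17.0% each, against 6.28% and 6.19%). Of the 9 higher genes 8 were antenna genes, and the 9 lower ones were carriers, photosystem II subunits and RBCS genes.

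LHCB1.4 had 33990, 32979, 33533 and 33408 normalized reads without BRZ and 40351, 46064, 44408 and 42262 with it, a log2 change of 0.37 (SE 0.08, adjusted p = 0.0164). LHCB2.2 had 5303, 4985, 5242 and 4702 against 6467, 5977, 6618 and 8066, a log2 change of 0.42 (SE 0.09, adjusted p = 0.0229). LHCB1.3 had 29837, 29514, 31822 and 29766 against 37266, 40695, 40922 and 35293, a log2 change of 0.35 (SE 0.08, adjusted p = 0.0315). In these 3 genes the treated and untreated libraries did not overlap.

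RBCS2B had 4583, 4542, 5168 and 4998 normalized reads without BRZ and 3627, 3534, 3852 and 2088 with it, a log2 change of -0.60 (SE 0.14, adjusted p = 0.0347). PSBS had 767, 665, 812 and 710 against 550, 604.5, 596 and 438, a log2 change of -0.44 (SE 0.11, adjusted p = 0.0438). Replicate 4 was the lowest treated library in both, and without it the changes were -0.39 and -0.34, still called. Seed storage markers had higher estimates with BRZ as well. All 10 tested had an estimate above 0, with a median log2 change of 2.93, 9 were higher by the study's criterion, and SESA3, a 2S albumin, was called (4.49, adjusted p = 0.0392). The 12 markers summed to 498, 5.62, 33.8 and 26.4 normalized reads without BRZ and 139, 780, 166 and 1752 with it, so the groups overlapped and replicate 4 held the most. The filter used the mean over both groups, so markers could enter through the treated libraries where they are high. The direction and median of the 10 tested are therefore partly set by the filter and are not support for a rise. Of the root markers 2 of 13 were called higher, IRT1 (1.32) and TIP2;3 (0.93), and the median was -0.06. The part of either marker set in these results was not tested.

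The baf1 calls were close to the threshold and rested on single libraries. Without untreated replicates 2, 3 or 4 there were 0 calls, without untreated replicate 1 or treated replicate 3 there was 1, and without treated replicate 4 there were 7. No call was left without the filter on low values or without a trend in the variance.

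In bes1.D, BRZ went with no called rise. Of 53 genes 0 were higher (against 0.129% of all 16309 genes) and 1 was lower (1.89%, against 0.448%). The lower gene was LHCB2.3, with 467, 540, 591 and 612 normalized reads without BRZ and 407, 288 and 280 with it, a log2 change of -0.78 (SE 0.14, adjusted p = 0.0127). By the study's criterion 1 gene was higher (1.89%, against 6.38%) and 14 were lower (26.4%, against 8.2%). Among the 14 were PSAK, PSAL, PSBQ-1, PSBS and 3 RBCS genes, with log2 changes between -0.38 and -0.52 and adjusted p above 0.09.

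The 3 treated bes1.D libraries differed among themselves. Without treated replicate 1, 9 genes were called lower, LHCA6, LHCB2.3, PSAH-1, PSAK, PSAL, PSBS, RBCS1B, RBCS2B and RBCS3B. The share of all genes called in that fit is not given, so this gain may not be particular to these genes. Without treated replicate 3 or 5, or untreated replicate 2 or 3, there were 0 calls. LHCA6 shows the disagreement most plainly, with 97.0, 7.01 and 16.1 normalized reads in treated replicates 1, 3 and 5.

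**Figure D4:**
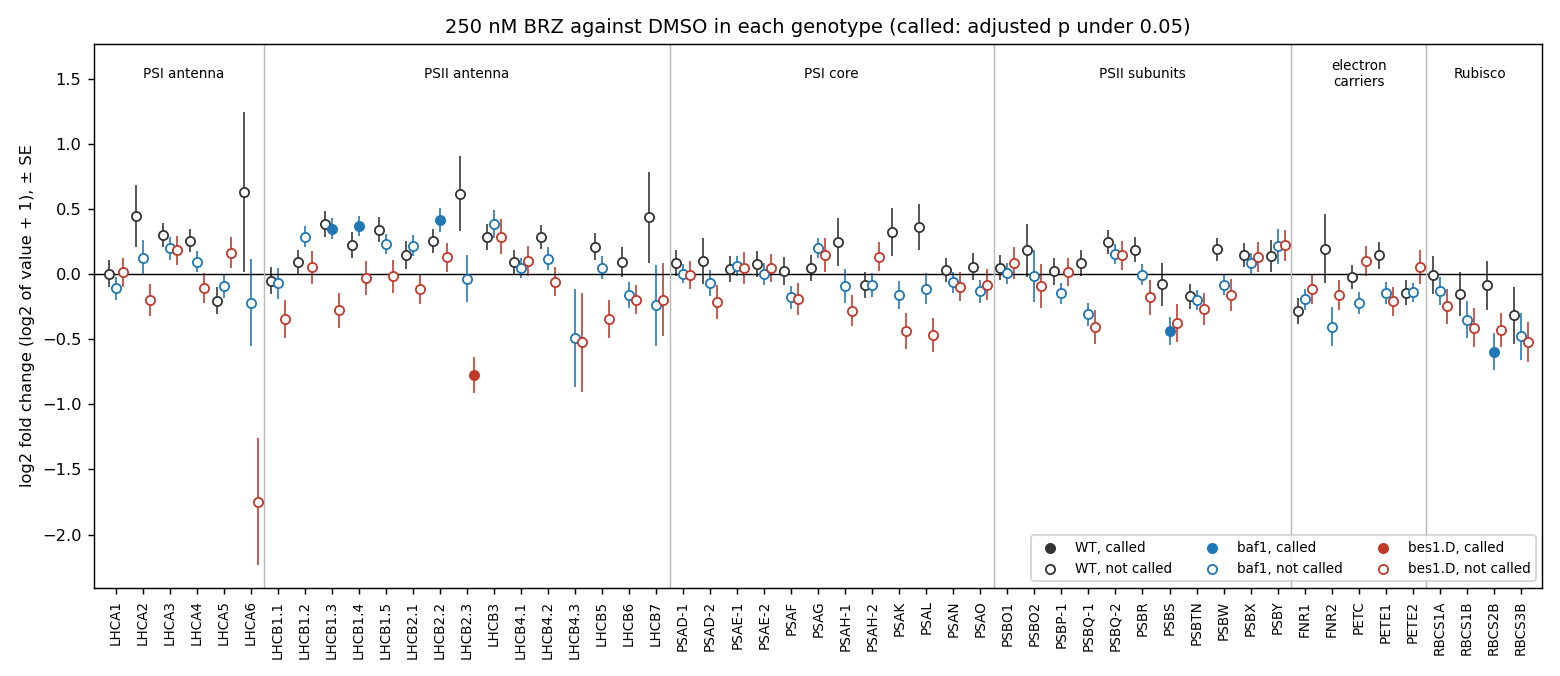
Log2 fold change of 250 nM BRZ against DMSO (log2 of normalized reads + 1, vertical axis, ± SE) for the 53 genes by class in WT (black), baf1 (blue) and bes1.D (red). Filled points are called at an adjusted p under 0.05; most antenna genes lie above 0 in WT (median 0.26), 3 are called higher in baf1, and in bes1.D only LHCB2.3 is called, at -0.78.

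Whether bes1.D responded to BRZ differently from WT was tested as an interaction over 14 libraries. No member was called (0.239% of all 16288 genes were), and 17 had an unadjusted p under 0.05 in limma, 1 positive (1.89%, against 6.17% of all genes) and 16 negative (30.2%, against 7.51%). LHCB1.3 had the smallest p, with an interaction of -0.66 (SE 0.16, adjusted p = 0.0776). LHCB2.3 had -1.40 (SE 0.36, adjusted p = 0.0959) and PSAL -0.83 (SE 0.24, adjusted p = 0.127). All 8 LHCB1 and LHCB2 estimates were negative, and for 5 of them the unadjusted p was not under 0.05.

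This count also turned on single libraries. Without replicate 5 of WT without BRZ, LHCB2.3 was called (-1.02, SE 0.20, adjusted p = 0.0235). Without replicate 1 of bes1.D with BRZ, LHCA6, LHCB1.3, LHCB2.3 and PSAL were called. Leaving out replicate 5 of WT without BRZ together with replicate 3 of bes1.D with BRZ, a setting chosen after seeing the data, left 0 calls and moved the median interaction of the 53 genes from -0.26 to -0.09.

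baf1 against WT without BRZ asked what the loss of BAF1 goes with. No gene of the 52 tested was called (0.129% of all 16235 genes were), and 23 had an unadjusted p under 0.05 in limma. A fit with the replicate number as a block called 15. By the study's criterion 22 were higher (42.3%, against 6% of all genes) and 1 lower (1.92%, against 4.27%). The 22 became 17 after rescaling to median-of-ratios size factors and 24 after scaling to genes that are not members. All 32 members that are not antenna genes had a log2 change above 0, as had 9131 of all 16235 genes. Their median was 0.22, against 0.00 over the 14 photosystem II antenna genes tested and 0.04 over all genes. How many of the 32 stay above 0 without replicate 5 of WT is not given. Root markers lay the other way, with 11 of 14 estimates below 0, a median of -0.15, 3 lower by the study's criterion and TIP2;3 called lower (-0.68, adjusted p = 0.0227), and their part in this result was not tested. The 13 root markers other than PYK10 summed to 1858 to 2707 in WT and 1459 to 1845 in baf1.

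PSBQ-1, an extrinsic subunit of the oxygen-evolving complex, had 1169, 1298, 1314 and 1215 normalized reads in WT and 1426, 1628, 1738 and 1690 in baf1, a log2 change of 0.37 (SE 0.08, adjusted p = 0.0991). PSBS had 566, 523, 621 and 370 against 767, 665, 812 and 710, a log2 change of 0.53 (SE 0.13, adjusted p = 0.147). PETC, the Rieske iron-sulphur protein, had 3130, 3326, 3350 and 3012 against 3498, 4242, 4066 and 4064, a log2 change of 0.31 (SE 0.08, adjusted p = 0.162). The groups did not overlap in these genes, yet none passed the adjusted threshold.

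Replicate 5 of WT was low in many of the same genes. Without it 4 were called, PSBQ-1 (0.36, adjusted p = 0.0176), PSBS (0.37, adjusted p = 0.0328) and RBCS2B (0.27, adjusted p = 0.0454) higher and LHCB1.4 (-0.24, adjusted p = 0.0415) lower. LHCB1.4 had 37095 to 41146 normalized reads in WT and 32979 to 33990 in baf1, and 7 of the 8 LHCB1 and LHCB2 genes had a negative estimate, the exception being LHCB2.3. LHCB7, which lies 0.163 Mb from BAF1, had 7.75 to 11.5 in WT and 13.3 to 22.1 in baf1 and was not called (adjusted p = 0.311).

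With BRZ, no gene of the 53 was called between baf1 and WT. Of 53 tested, 0 passed the adjusted threshold (0.0488% of all 16379 genes were) and 0 had an unadjusted p under 0.05 in limma, against 3.06% of all genes higher and 2.54% lower by the study's criterion. The 3 smallest p belonged to PSAH-2, LHCA5 and PSAD-2. PSAH-2 had 3827, 4236 and 3663 normalized reads in WT and 4418, 4170, 4405 and 5408 in baf1. The interaction of baf1 and BRZ was called for 0 members and for 0 of all 16315 genes (0%). 4 members were negative by the study's criterion (7.55%, against 3.08%) and 0 positive (against 2.71%), and the smallest adjusted p was 0.823, for PSBQ-1.

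Genes that work with these complexes were counted in the same fits, and their difference from the antenna was not tested. In bes1.D without BRZ, 3 of 19 Calvin cycle genes were higher and 0 lower, among them PRK, phosphoribulokinase (0.43, adjusted p = 0.0048) and SBPASE (0.38, adjusted p = 0.0299). Of 11 photorespiration genes tested 2 were higher, GLDT and GLDH1, both of the glycine decarboxylase complex (0.61 and 0.51, adjusted p = 0.0354 and 0.00133). Of 22 genes of ATP synthase, cyclic flow and assembly 2 were higher, FD1 and STN8. Of 13 genes of chlorophyll synthesis and GLK factors 1 was lower, GLK2, an activator of antenna genes (-0.56, adjusted p = 0.0342). These stand against 4.09% of all genes higher and 3.44% lower.

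With BRZ, bes1.D against WT gave 4 Calvin cycle genes higher and 2 lower of 19, led by PRK (0.95, adjusted p = 2.75e-05), where 5.76% of all genes were higher and 5.3% lower. In the chlorophyll list 3 of 14 were lower and 1 higher, and its median was -0.14 against 0.04 over all genes. PORA, the light-repressed protochlorophyllide oxidoreductase, changed by -2.82 (SE 0.50, adjusted p = 0.000629), CAO, which makes chlorophyll b for the antenna, by -0.76 (adjusted p = 0.0279) and CRD1, a cyclase of chlorophyll synthesis, by -0.47 (adjusted p = 0.046). PORC, the light-stable oxidoreductase, was the higher gene (0.57, adjusted p = 0.0113). For BRZ against DMSO within baf1, 5 of 19 Calvin cycle genes were lower, among them GAPB and CP12-2 (-0.52 and -0.61, adjusted p = 0.00267 and 0.0197). Also lower were 3 of 11 photorespiration genes and 3 of 22 of ATP synthase, cyclic flow and assembly, and 0 genes of these 3 lists were higher. Over all genes 0.885% were lower and 0.916% higher in that comparison. For BRZ against DMSO in WT, 1 of 19 Calvin cycle genes was lower, FBA1 (-0.51, adjusted p = 0.0335), where 57 of all 16194 genes were. Of the 19, 15 had an estimate below 0 in WT (median -0.14) and 18 in baf1 (median -0.28). By the study's criterion 7 were lower in WT (against 4.92% of all genes) and 12 in baf1 (against 6.19%). The interaction of baf1 and BRZ called 0 of the 19.

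Root markers moved in several of the same comparisons. In bes1.D without BRZ, 10 of 13 tested had an estimate below 0, with a median of -0.32. By the adjusted p 2 were lower, the aquaporin TIP2;3 (-0.97) and the Casparian strip protein CASP2 (-0.64), and 1 was higher, the iron transporter IRT1 (1.47). Over all genes 3.44% were lower and 4.09% higher by the adjusted p. By the study's criterion 5 were lower and 2 higher, where 1311 of all 16270 genes were lower and 2313 higher. With BRZ, 3 of 13 were lower in bes1.D, EXPA7 and COBL9 of root hairs and TIP2;3 (-0.87, -1.13 and -1.02), 0 were higher and the median was -0.08. Over all genes 5.3% were lower and 5.76% higher with BRZ. PYK10, a root beta-glucosidase, makes up most of the summed level, which was 12881 to 14671 in WT and 12797 to 15674 in bes1.D without BRZ. The other 13 markers summed to 1858 to 2707 in WT and 1464 to 1912 in bes1.D without BRZ, and to 2488 to 2950 and 1352 to 1953 with it. The part of tissue proportions in the antenna result was not tested.

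Within groups the 53 genes were steady for the most part. The median within-group SD was 0.115 on the log2 scale, against 0.14 over the 519 genes that averaged 1000 normalized reads or more. The exceptions recurred in a subset of genes. In replicate 5 of WT without BRZ, replicate 4 of baf1 with BRZ and replicate 3 of bes1.D with BRZ, 16 genes were more than 0.5 below the mean of the others in at least 1 of the 3 libraries, 13 in at least 2 and 3 in all 3. The 3 were LHCA6 (-2.88, -1.66 and -2.35), PSAK (-0.95, -0.55 and -0.575) and RBCS1B (-0.715, -0.765 and -0.79). LHCA2, LHCB2.3, FNR2, RBCS2B, RBCS3B, PSAL, PSAH-1, PSBO2, PSBS and LHCB4.3 were low in 2. These libraries had estimated depths of 2.62, 2.75 and 3.00 M reads, against a median of 3.76 M. Some other libraries were shallower. Replicate 3 of WT with BRZ (2.11 M) and replicate 3 of bes1.D without BRZ (2.47 M) had 1 low gene each, and replicate 2 of WT with BRZ (2.47 M) had 5.

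The abundant antenna genes LHCB1.2 to LHCB1.5 and LHCA4 were within 0.5 of the mean of the others in these 3 libraries. In the PSAH and PSAD pairs the minor copy was the lower one in replicate 5 of WT without BRZ. PSAH-1 had 955 normalized reads in replicate 5 of WT without BRZ against 1577 to 1841 in the others of the group, while PSAH-2 had 4377 there against 3643 to 4285. PSAD-2 had 742 against 1221 to 1355, and PSAD-1 had 4964 against 5693 to 6050.

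**Figure D5:**
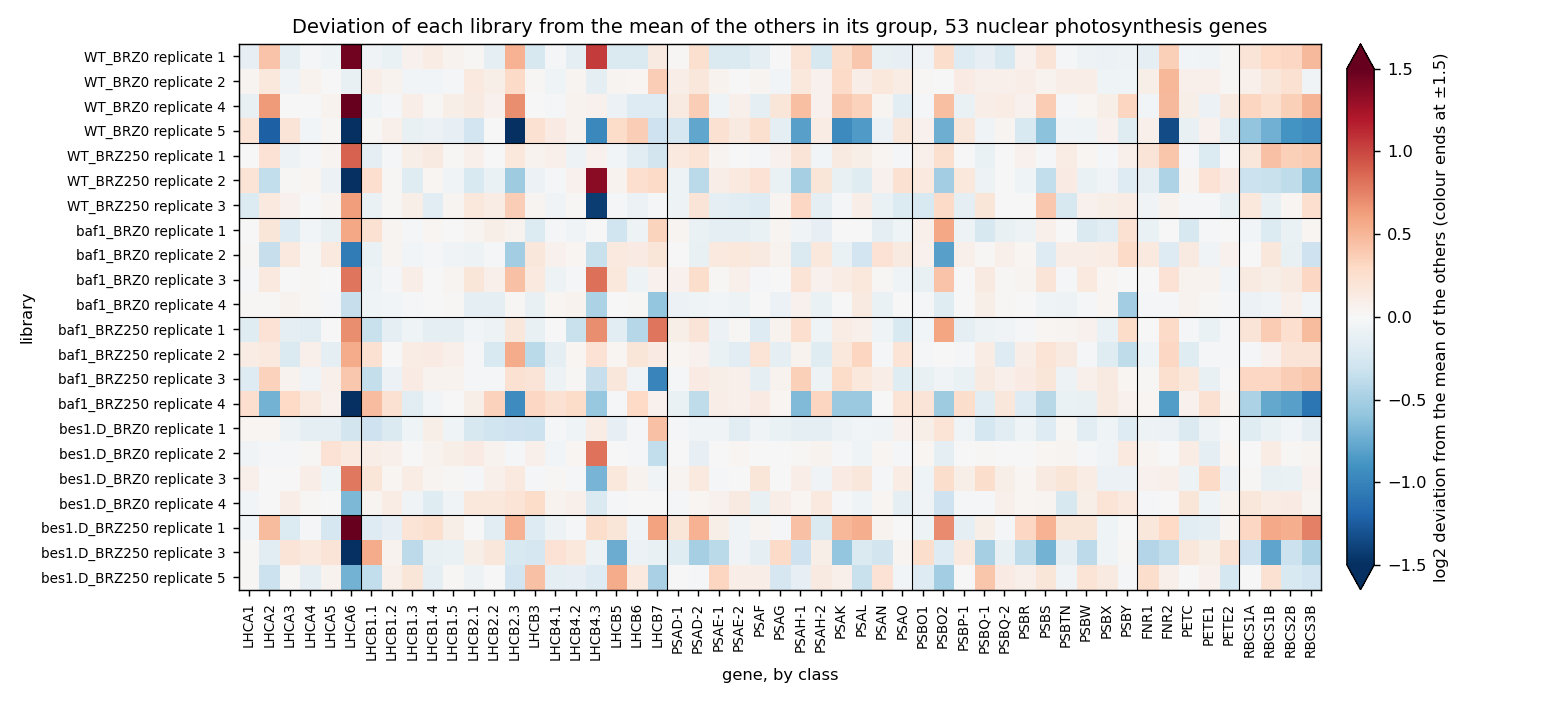
Deviation of each library (rows) from the mean of the other libraries of its group on the log2 scale for the 53 genes (columns, by class); blue is below and red above that mean, and colours end at ±1.5. Replicate 5 of WT without BRZ and replicate 4 of baf1 with BRZ share blue cells at LHCA2, LHCA6, LHCB2.3, PSAH-1, PSAK, PSAL, FNR2 and the RBCS genes, with LHCA6 at -2.88 and -1.66.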

How the data were processed

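QuantSeq 3′ libraries were sequenced as 50-base single reads and run through a Lexogen QuantSeq pipeline against TAIR10. The submitters' notes list STAR, HTSeq and edgeR, with no versions in the sources used here. The deposited table holds a signal per gene that the authors call normalized reads, adjusted so that library totals are nearly equal. It is not raw counts, so no count test was run, and library depth is an estimate from genes with low values.

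Here 1 was added, log2 taken, and genes with a mean under 10 left out. Groups were fitted with limma 3.58.1 in R 4.3.3 (lmFit, eBayes with a variance trend), using only the groups of a comparison, and p-values were adjusted over all genes tested by the Benjamini-Hochberg method. The procedure was tested on simulated data. There were 7 comparisons of pairs of groups and 2 interactions. The 53 genes and the other lists were chosen with earlier results of these data known. Full values are given for up to 10 called genes with the largest change in each comparison, or the 3 with the smallest p where none was called, for paired copies and for the most and least abundant genes. Values for other genes were added after they were seen. Alternatives were other pseudocounts (0.1 and 5), filters, scalings, a variance without trend, a fit to all 22 libraries, a replicate block, the study's criterion and leaving out each library. Upstream sequences were cut from the RefSeq TAIR10.1 genome. Figures were drawn with matplotlib 3.10.9. Columns of samples left out numbered 0.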

Additional observations from a re-analysis of the deposited data

Results flagged for a closer look

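Of 240 sets of 4 libraries examined, 18 had a single library far from the other 3, where about 12 would be picked out by chance. 7 of them concern WT without BRZ. In replicate 5 FNR2 had 313.7 normalized reads (765 to 822 in the others), RBCS1B had 1349 (2142 to 2289), RBCS2B had 2147 (3863 to 4137), PSAK had 3192 (6005 to 6477) and PSBR had 20959 (24468 to 24933). In replicate 1 LHCB4.2 had 5731 (6327 to 6347) and PSAH-2 had 3643 (4274 to 4377).

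In baf1 without BRZ, LHCA4 had 12046 in replicate 1 (12421 to 12456 in the others) and LHCB1.1 had 32959 (27834 to 28356). Replicate 3 had 31822 for LHCB1.3 (29514 to 29837) and 1689 for PSAD-2 (1390 to 1423). The electron carriers took 0.8858% of reads in replicate 2 (0.8462% to 0.8506% in the others).

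In baf1 with BRZ, replicate 4 had 9142 normalized reads of LHCB2.1 (8573 to 8653 in the others) and 459.7 of FNR2 (804.4 to 837.2), and replicate 2 had 26650 of PSAG (29128 to 29509). In bes1.D without BRZ, PSAL had 6799 in replicate 3 (5999 to 6068), PSBX had 8919 in replicate 4 (7676 to 7796) and RBCS3B had 13505 in replicate 1 (14929 to 15085).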

How the results depend on the processing

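Of 714 repeats of the results for single genes, 631 kept their direction and side of the threshold, 66 fell below it, 17 rose above it and 0 reversed. Counts of called genes moved as follows, and the cause was not tested. Without the filter on low values, 5 and 3 were called in bes1.D against WT without and with BRZ, and 0 for BRZ in baf1 and 0 in bes1.D. Without a variance trend these were 9, 7, 0 and 0. The fit to all 22 libraries called 2 for BRZ in WT, 3 in baf1, 0 in bes1.D and 1 for the bes1.D interaction, as did a minimum mean of 50 (1).

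The study's criterion gave 23 and 25 for baf1 and bes1.D against WT without BRZ, 11, 18 and 15 for BRZ in WT, baf1 and bes1.D, 27 for bes1.D with BRZ, and 4 and 17 for the interactions. For bes1.D against WT it took in many of all genes too, 2313 higher and 1311 lower of 16270 without BRZ. With BRZ these were 2229 and 1744 of 16294. Size factors turned the median change of bes1.D without BRZ to -0.0546, and scaling to the other genes made it -0.3063 with BRZ.

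Same-numbered libraries had correlations of deviations between -0.206 and 0.261, and those of replicate 1 ran from 0.045 to 0.261. These values cannot decide whether replicate numbers pair the samples, and the main fits did not pair them. With the replicate block 15 genes were called for baf1 without BRZ, 8 for BRZ in WT, 2 in baf1, 0 in bes1.D and 1 for baf1 with BRZ, and the median interactions became -0.1005 (baf1) and -0.1468 (bes1.D).

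Leaving out each library in turn gave 0 to 4 called genes for baf1 without BRZ, 0 to 2 for BRZ in WT, 0 to 7 in baf1, 0 to 9 in bes1.D and 0 to 4 for the bes1.D interaction. Median changes ran from -0.0922 to -0.0121 for BRZ in baf1, from -0.1563 to -0.0453 in bes1.D, from 0.0278 to 0.0762 for baf1 with BRZ, and from -0.157 to -0.082 and -0.2828 to -0.1188 for the baf1 and bes1.D interactions. Leaving out both libraries that stood apart, chosen after seeing the data, gave medians of -0.0815 and -0.0939 and 0 called genes in each.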
